A study of Mus musculus with 12 samples.

Results

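The dystrophin-glycoprotein complex was followed here through 8 named genes, Dmd, Utrn, Dag1, Sgca, Sgcb, Sgcd, Sgce and Sntb1, in a mouse muscle cell culture study. The genes were taken by name from 12 transcript tables, in which the TPM (transcripts per 1000000 transcripts) of every transcript that matched a gene of the mouse genome were summed. The 8 genes were among 25776 genes with a matched transcript, and 7 of the 8 were among the 13077 genes that reached a TPM of 1 in at least 3 libraries and were tested. Dmd was the gene left out by that filter, and Sgca passed it only through its day 2 libraries, so its day 2 level had to be higher than its day 0 level.

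The cells were C2C12, an established mouse myoblast line that fuses into multinucleate myotubes when serum is withdrawn. Subconfluent myoblasts in medium with 10% fetal bovine serum (D0) and differentiating myocytes (D2) had each received a non-targeting control siRNA (siCont) or an siRNA against Kctd10 (siKctd10), with 3 libraries of poly(A)-selected RNA in each of the 4 groups. Kctd10 encodes an adaptor that brings substrates to a cullin-3 ubiquitin ligase. For D2 the serum was replaced by 2% horse serum 24 h after the siRNA and the cells were collected 48 h after that, so cell density, medium and time after the siRNA differ together between D0 and D2 and cannot be told apart.

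All groups share the C2C12 background, and the design names a single siRNA against Kctd10 for the myoblasts, so results for the siRNA are results for that reagent. The labels do not say whether the 3 libraries of a group came from separate cultures. If they did not, the p-values measure technical spread only.

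In muscle, dystrophin binds actin under the cell membrane and anchors a transmembrane complex whose outer part, alpha-dystroglycan, binds laminin in the basement membrane. The sarcoglycans stabilise this assembly, and the syntrophins and dystrobrevins dock on its inner face and bring signalling proteins to the membrane. Loss of dystrophin, of a sarcoglycan or of the sugar chain on dystroglycan causes muscular dystrophy, and utrophin is the dystrophin relative found at the neuromuscular junction and in immature muscle.

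Deposited values covered about 12510000 to 18080000 estimated read pairs per library, and 12024 to 12605 genes reached a TPM of 1. Kctd10 averaged 266 ± 7.32 TPM in D0 siCont and 23.1 ± 2.69 in D0 siKctd10 (SD, n = 3), and 283 ± 6.77 and 32 ± 4.58 at D2, with no overlap on either day. The labelled cell type was checked with 6 myogenic genes (Myod1, Myf5, Myog, Cdh15, Mymk and Myh3), whose summed level was 275 to 301 TPM in D0 siCont, 300 to 341 in D0 siKctd10, 1640 to 1760 in D2 siCont and 1200 to 1520 in D2 siKctd10. Of 9 markers of blood, endothelial, fat, glial, nerve and smooth muscle cells, 3 (Ptprc, Adgre1 and Adipoq) were listed at 0 in all 12 libraries, and the summed level of the 9 ran from 0.992 to 2.42 TPM. The second principal component set the siKctd10 libraries numbered 3 of both days farthest from the siCont libraries, and calls of named genes that were lost without them are marked where they are given.

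One property of the deposited tables touches every level. Among internal exons of well covered transcripts, 63.7% to 68.1% of those under 202 bases, the length of a read pair, carried less than 1% of their transcript's mean coverage, against 7.8% to 8.9% of longer exons. Dystrophin and utrophin genes consist mostly of short exons: 70 of 79 exons of the full-length Dmd transcript and 65 of 74 exons of the leading Utrn transcript were under 202 bases. Of these short exons, 62 of Dmd and 44 of Utrn were at 0 in all libraries. For the order of levels between genes, deposited TPM and TPM recomputed on exons of at least 202 bases are therefore both given where they differ, and all comparisons between groups were repeated on the second scale.

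Sequence around the start sites is shown for 3 of the genes because they cover the extremes of the results below: Sgca, the member with the largest fitted rise, Sgcb, which also rose, and Dmd, which stayed near 0. Each is a RefSeq window on GRCm38.p6, running 250 bases before to 50 after an annotated start, printed 5′ to 3′ on the gene's strand. Capitals mark E-boxes, the sequence CANNTG that myogenic basic helix-loop-helix factors can bind. CANNTG reads the same on both strands.
Sgca, chr11:94976278-94976577, minus strand: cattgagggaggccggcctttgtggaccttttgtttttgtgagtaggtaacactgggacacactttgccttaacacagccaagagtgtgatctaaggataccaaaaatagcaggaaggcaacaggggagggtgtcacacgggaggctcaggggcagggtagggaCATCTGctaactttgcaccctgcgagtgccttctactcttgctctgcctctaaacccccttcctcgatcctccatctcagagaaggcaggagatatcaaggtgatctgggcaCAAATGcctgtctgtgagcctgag
Sgcb, chr5:73647688-73647987, minus strand: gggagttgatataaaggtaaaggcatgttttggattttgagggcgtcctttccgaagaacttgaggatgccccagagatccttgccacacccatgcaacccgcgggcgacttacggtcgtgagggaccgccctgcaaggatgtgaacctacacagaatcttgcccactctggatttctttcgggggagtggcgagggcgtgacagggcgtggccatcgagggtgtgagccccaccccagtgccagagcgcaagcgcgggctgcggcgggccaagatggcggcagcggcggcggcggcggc
Dmd, chrX:82948620-82948919, plus strand: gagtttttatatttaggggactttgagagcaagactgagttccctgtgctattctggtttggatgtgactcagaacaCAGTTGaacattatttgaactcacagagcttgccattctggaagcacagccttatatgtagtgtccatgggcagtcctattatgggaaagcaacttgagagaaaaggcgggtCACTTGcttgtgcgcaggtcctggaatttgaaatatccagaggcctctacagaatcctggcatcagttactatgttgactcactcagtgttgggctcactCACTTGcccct
The Sgca window held 2 E-boxes, the Sgcb window 0 and the Dmd window 3. Of all 32851 RefSeq promoter windows of this length, 72.3% held at least 1. Windows were found for 6 of the 8 members, and the printed ones were chosen with the results known. Of those not printed, a second Dmd window, chrX:85048045-85048344, held 0, the Sgcd window 2, the Utrn window 7 and each of the 2 Dag1 windows 1.

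Dystrophin itself was close to undetected. Dmd (chrX:82948870-85206141, plus strand) was listed at 0.00400, 0.0283 and 0.00391 TPM in the 3 D0 siCont libraries and at 0.0428, 0.0517 and 0.0169 in D0 siKctd10. At D2 it was listed at 0.0170, 0.0311 and 0.0249 TPM in siCont and at 0.0233, 0.0820 and 0.0951 in siKctd10. The groups overlapped on each day, and the values stood for 0.347 to 7.74 estimated read pairs per library, so no fold change is given.

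The few reads were assigned almost entirely to the full-length transcript, Dmd-203, with 96.5% of the summed TPM. Of 12 Dmd transcripts in the tables, 10 were listed at 0 in all 12 libraries, among them all 6 forms that start at the promoter in the 3′ part of the gene from which the short Dp71 form is made. The form Dmd-211 reached 0.0149 TPM in 1 D0 siKctd10 library and was at 0 in the other 11. Upstream of that 3′ promoter, only exons 20, 43, 50 and 59 of Dmd-203 had coverage, each in 1 D2 siKctd10 library. Exon 65, downstream of it, was at 0 in only 1 library. Coverage downstream lies within the span of the short forms, so its assignment to Dmd-203 does not show which form was present. The last Dmd exon, 2580 bases long, can hold many whole read pairs and had a mean coverage of at most 0.157 reads in any library. Recomputed on exons of at least 202 bases, Dmd averaged 0.0161 ± 0.0187 TPM in D0 siCont and 0.0552 ± 0.0278 in D2 siKctd10.

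Utrophin was present at every stage and rose at D2. Utrn (chr10:12382188-12869365, minus strand), whose product binds actin and beta-dystroglycan as dystrophin does, was at 24.2, 25.7 and 27.8 TPM in D0 siCont and at 46.2, 59.7 and 49.7 in D2 siCont. In siKctd10 it was at 33.0, 34.7 and 38.4 TPM at D0 and at 55.6, 64.0 and 62.5 at D2. All D2 libraries lay above all D0 libraries.

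The rise of Utrn was 0.97 on the log2(TPM + 1) scale in siCont (SE 0.12, limma adjusted p = 0.00013) and 0.76 in siKctd10 (SE 0.12, adjusted p = 0.00063). Between the siRNAs, at D0 the siKctd10 libraries were all above the siCont libraries, by 0.44 (95% interval 0.17 to 0.70, adjusted p = 0.095), which did not pass the threshold of 0.05. On exons of at least 202 bases the same difference was 0.56 and did pass (adjusted p = 0.02), with mean levels of 51.1 ± 2.28 against 76.4 ± 9.4 TPM. At D2 the Utrn groups overlapped, with a difference of 0.23 (interval -0.03 to 0.49).

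Coverage at the 5′ end of Utrn lay outside the leading transcript. Exons 1, 2 and 3 of that transcript are shorter than a read pair, and exons 2 and 3 were at 0 in all libraries, while exon 1 was at 0 in 11 of 12. A first exon of 611 bases, chr10:12868755-12869365, that begins 7630 bases upstream and belongs to another listed transcript, was covered in every library. Its coverage per 1000000 read pairs was 0.599 ± 0.105 in D0 siCont, 0.974 ± 0.131 in D0 siKctd10, 1.31 ± 0.147 in D2 siCont and 1.44 ± 0.337 in D2 siKctd10, the same order of group means as for the whole gene.

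**Figure D1:**
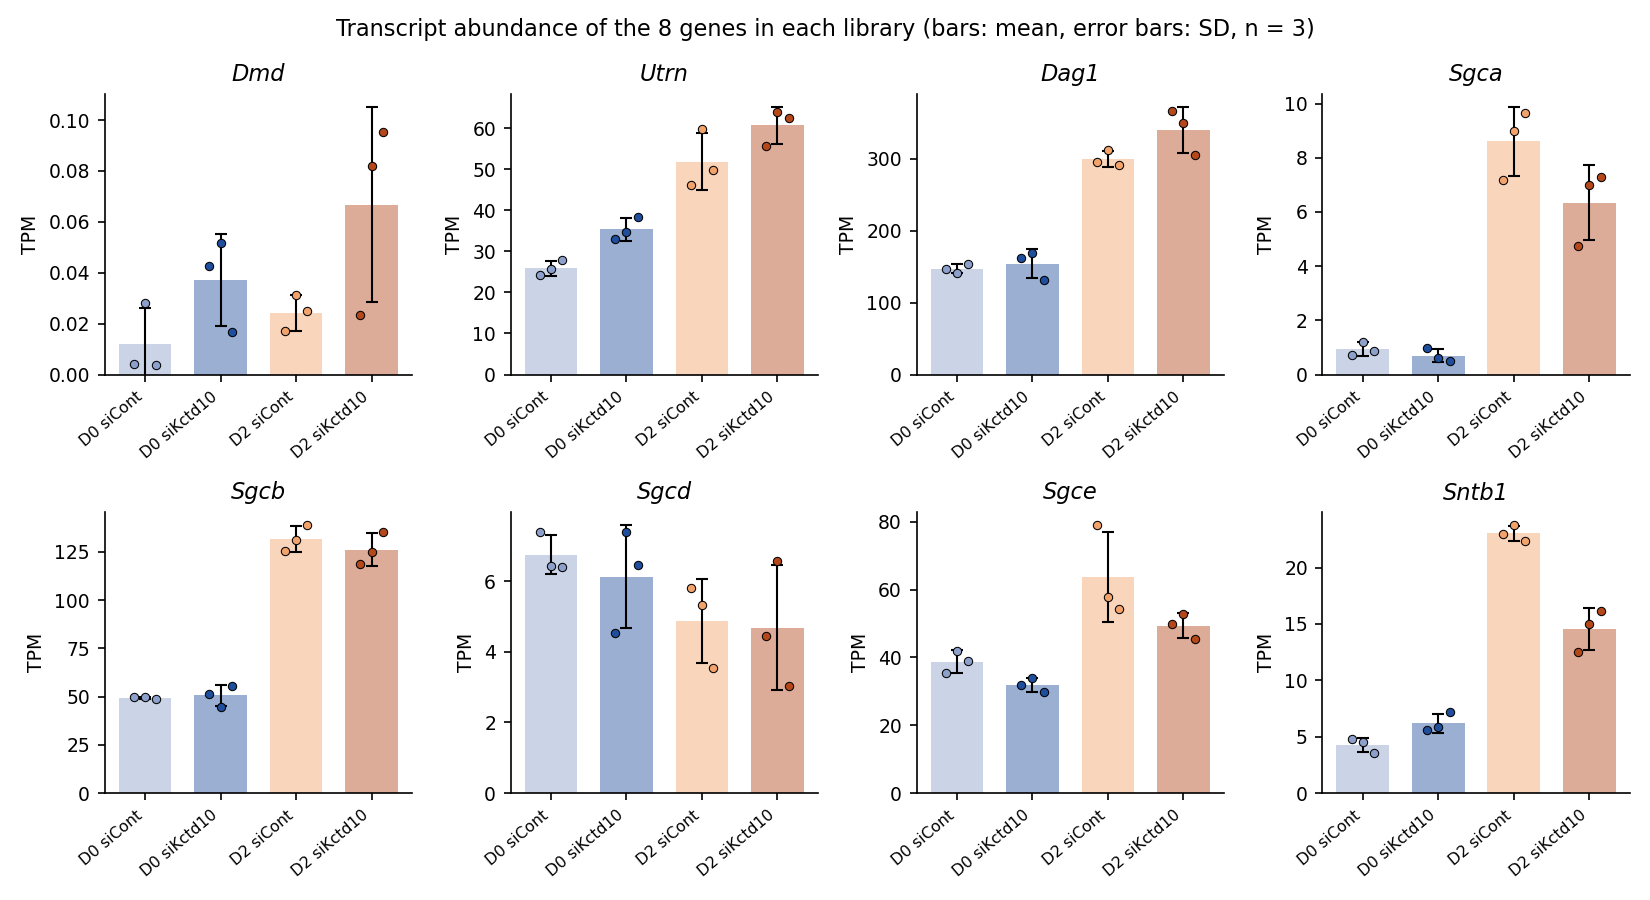
TPM of the 8 genes in each library (points), with the mean (bar) and SD (error bar) of the 3 libraries of each group, each panel on its own linear axis from 0. D2 bars stand above D0 bars for Utrn, Dag1, Sgca, Sgcb, Sgce and Sntb1, Sgcd does not rise, and the Dmd axis ends near 0.1 TPM.

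Dystroglycan was the most abundant of the 8 genes in every group. Dag1 (chr9:108204634-108263958, minus strand) encodes both the laminin-binding alpha subunit and the membrane-spanning beta subunit. It was at 147, 141 and 154 TPM in D0 siCont and at 296, 313 and 291 in D2 siCont, a gain of 1.02 on the log2 scale (SE 0.10, limma adjusted p = 4.1e-05).

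The siKctd10 cells reached the same range. Dag1 was at 162, 169 and 132 TPM at D0 and at 367, 349 and 305 at D2, a gain of 1.14 (SE 0.10, adjusted p = 2.1e-05). The siRNA groups overlapped on both days, with differences of 0.06 (95% interval -0.18 to 0.29) at D0 and 0.18 (interval -0.05 to 0.41) at D2. Almost all coverage came from exons of at least 202 bases, including the 4801-base last exon, so Dag1 is the member least touched by the loss of short exons.

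The 4 sarcoglycans behaved differently from each other. Alpha-sarcoglycan, Sgca (chr11:94962791-94976327, minus strand), is the muscle-restricted subunit whose loss causes a limb-girdle dystrophy. It was at 0.710, 1.21 and 0.885 TPM in D0 siCont and at 7.18, 9.0 and 9.63 in D2 siCont. In siKctd10 it was at 0.982, 0.618 and 0.508 TPM at D0 and at 4.75, 7.01 and 7.28 at D2.

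Every D2 library of Sgca stood far above every D0 library, and the ratio of the mean TPM was 9.2 in siCont and 9.03 in siKctd10. The fitted gains were 2.31 (SE 0.19, limma adjusted p = 8.6e-06) and 2.10 (SE 0.19, adjusted p = 1.9e-05) on the log2(TPM + 1) scale, which understates changes of genes near 1 TPM. Since Sgca passed the filter only through D2, the direction of these gains was set by the filter and their p-values do not test it. At D2 the siKctd10 mean was lower, 6.35 ± 1.39 against 8.6 ± 1.27 TPM, but 1 library of each group overlapped the other and the difference of -0.40 did not pass (95% interval -0.82 to 0.02, adjusted p = 0.29). Sgca rested on 5.28 to 97.7 estimated read pairs per library. A single-exon transcript of Hils1 on the opposite strand lies inside the gene, at up to 8.82 TPM, and the sources used here do not state whether strand was used in counting.

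Beta-sarcoglycan rose with both siRNAs. Sgcb (chr5:73632749-73647790, minus strand), which forms the core of the sarcoglycan subcomplex with Sgcd, was at 49.9, 49.7 and 48.9 TPM in D0 siCont and at 125, 131 and 139 in D2 siCont. In siKctd10 it was at 51.5, 44.8 and 55.4 TPM at D0 and at 119, 125 and 135 at D2. The D0 and D2 ranges were far apart with both siRNAs.

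The gains of Sgcb were 1.39 (SE 0.09, limma adjusted p = 1.9e-06) in siCont and 1.31 (SE 0.09, adjusted p = 3.4e-06) in siKctd10. The siRNA difference was 0.03 at D0 (95% interval -0.18 to 0.23) and -0.06 at D2 (interval -0.26 to 0.14). The sign of the D0 difference changed with the scaling, as given in the closing section.

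Delta-sarcoglycan was the tested member that did not rise. Sgcd (chr11:46896253-47988969, minus strand) was at 7.38, 6.44 and 6.41 TPM in D0 siCont and at 5.80, 5.32 and 3.54 in D2 siCont, so that all D2 values lay below all D0 values. In siKctd10 it was at 4.54, 7.38 and 6.47 TPM at D0 and at 4.45, 6.57 and 3.04 at D2, and these ranges overlapped. The differences of -0.42 (95% interval -0.98 to 0.15, limma adjusted p = 0.24) and -0.35 (interval -0.92 to 0.21, adjusted p = 0.32) did not pass the threshold. Of the 8 exons of its leading transcript, 6 were at 0 in all libraries and the 654-base last exon held 96.2% of the coverage, 24.8 to 74 estimated read pairs per library.

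Epsilon-sarcoglycan, Sgce (chr6:4674350-4747207, minus strand), is the widely expressed relative of Sgca. It was at 35.5, 42.0 and 38.8 TPM in D0 siCont and at 78.9, 57.9 and 54.3 in D2 siCont, where library 1 stood above the others. In siKctd10 it was at 31.8, 33.9 and 29.8 TPM at D0 and at 49.8, 52.8 and 45.4 at D2. D2 libraries lay above D0 libraries with both siRNAs, and siKctd10 libraries lay below siCont libraries on both days.

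Sgce rose by 0.69 (SE 0.14, limma adjusted p = 0.0038) in siCont and by 0.62 (SE 0.14, adjusted p = 0.0067) in siKctd10. The siRNA differences of -0.28 at D0 (95% interval -0.59 to 0.04, adjusted p = 0.38) and -0.35 at D2 (interval -0.66 to -0.03, adjusted p = 0.22) did not pass. On exons of at least 202 bases, which held 15.9% of its leading transcript's coverage, they were -0.11 and -0.13. Most of its level was assigned to the forms Sgce-205 and Sgce-204, which differ by a single short exon, and the split varied: their mean TPM was 20.6 ± 4.17 and 17.6 ± 1.09 in D0 siCont and 18.3 ± 1.78 and 11.9 ± 2.35 in D0 siKctd10. At D2 it was 28.4 ± 5.03 and 34.4 ± 8.42 in siCont and 24.5 ± 4.37 and 23.2 ± 4.09 in siKctd10.

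Among sarcoglycans, then, Sgcb and Sgce made up most of the transcript at D0 and Sgca was the lowest. Mean TPM at D2 in siCont was 132 ± 6.77 for Sgcb, 63.7 ± 13.3 for Sgce, 8.6 ± 1.27 for Sgca and 4.88 ± 1.19 for Sgcd. Sgca was below Sgcd at D0 and above it at D2 in siCont, without overlap on either day. In D2 siKctd10 the 2 genes overlapped in deposited TPM, while on exons of at least 202 bases Sgca was at 9.29 ± 2.41 and Sgcd at 2.39 ± 0.898 TPM, without overlap.

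Beta-1-syntrophin gave the one difference between the siRNAs that passed the test. Sntb1 (chr15:55636388-55906949, minus strand) encodes an adaptor that binds dystrophin, utrophin and dystrobrevin and carries a PDZ domain for channels and kinases. It was at 4.76, 4.50 and 3.59 TPM in D0 siCont and at 5.58, 5.84 and 7.17 in D0 siKctd10. At D2 it was at 23.0, 23.7 and 22.4 TPM in siCont and at 12.5, 15 and 16.2 in siKctd10.

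The 4 groups of Sntb1 did not overlap, and the order of the siRNA groups turned between the days: siKctd10 was above siCont at D0 and below it at D2. The ratio of the D2 to the D0 mean TPM was 5.38 in siCont and 2.35 in siKctd10. On the log2 scale the gains were 2.19 (SE 0.14, limma adjusted p = 1.8e-06) and 1.11 (SE 0.14, adjusted p = 0.00019).

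At D2 Sntb1 fell by 0.63 with siKctd10 (95% interval -0.95 to -0.32, limma adjusted p = 0.033), lower in 3 of 3 libraries. At D0 the difference was 0.45 (interval 0.13 to 0.76), higher in 3 of 3 libraries, and did not pass (adjusted p = 0.15). The difference between the gains was -1.08 (interval -1.53 to -0.63, adjusted p = 0.047).

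Both calls lie near the threshold. Over 24 alternatives the D2 difference ranged from -0.75 to -0.47 with adjusted p from 0.013 to 0.1, and the call was lost without any 1 of the 6 D2 libraries or without library 2 of either D0 group. The difference between the gains lost its call without any 1 of the 12 libraries and without both siKctd10 libraries numbered 3, and ranged from -1.19 to -0.79 over 23 alternatives, with adjusted p from 0.026 to 0.11. The D2 fall went with a lower summed level of the 6 myogenic genes, 1200 to 1520 against 1640 to 1760 TPM, and with a summed level of the 9 markers of other cells of 1.96 to 2.42 against 1.53 to 1.87 TPM. Of the 6 myogenic genes, 4 were called lower at D2 and 0 higher, or 3 lower without both siKctd10 libraries numbered 3. Myh3 overlapped, at 199, 234 and 612 TPM in siKctd10 against 332, 340 and 299 in siCont. The part of these markers in the Sntb1 result was not tested. In bulk RNA, fewer cells of a type and less RNA per cell cannot be told apart.

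Sntb1 could also be read exon by exon, since each of its 7 exons had coverage in some library. In exon 7, the last, coverage per 1000000 read pairs was 8.23, 7.33 and 6.40 in D2 siCont and 4.19, 4.61 and 4.81 in D2 siKctd10. Exon 3 gave 4.0, 2.90 and 3.02 against 2.14, 2.44 and 2.05, again without overlap.

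The first exons were not apart. In the 926-base exon 1 the D2 values were 0.595, 0.765 and 0.778 in siCont and 0.396, 0.631 and 0.806 in siKctd10, and in exon 2 they were 1.06, 1.53 and 0.646 against 0.678, 0.478 and 0.798. These exons overlapped between the siRNAs, and both rose from D0 to D2. On exons of at least 202 bases the whole-gene D2 difference was -0.47 (SE 0.15, limma adjusted p = 0.1).

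**Figure D2:**
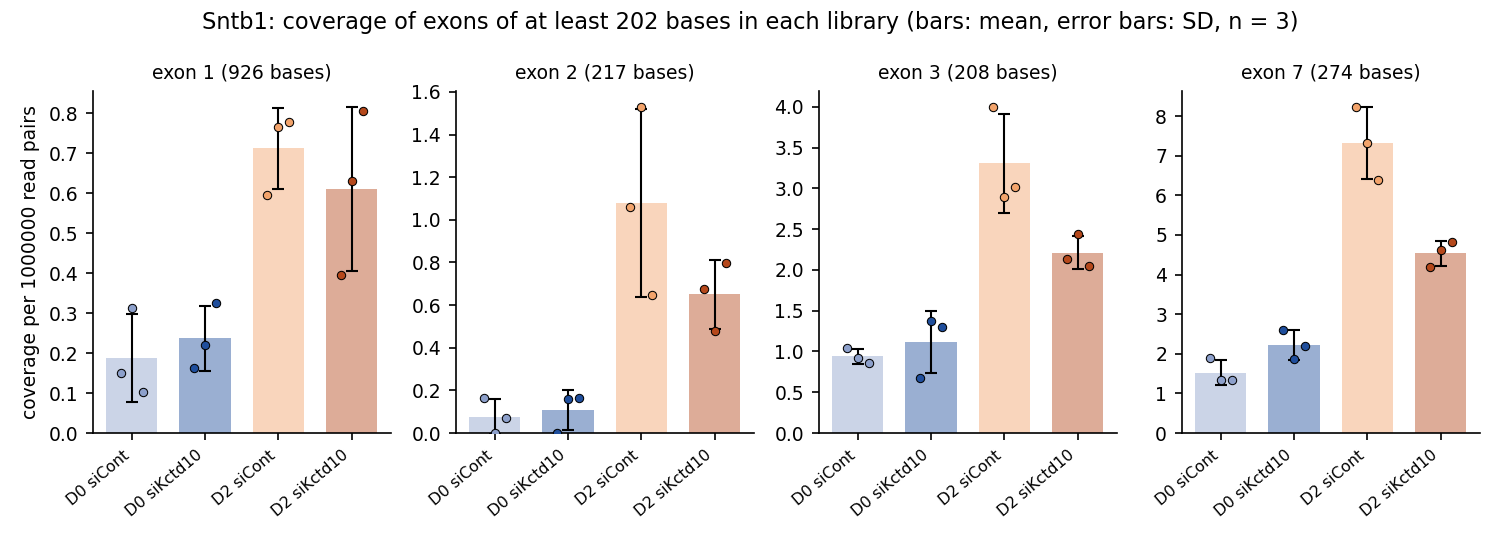
Coverage per 1000000 read pairs of the 4 Sntb1 exons of at least 202 bases (points: libraries, bars: mean, error bars: SD, n = 3), each panel on its own linear axis from 0. The siRNA groups at D2 are apart in exons 3 and 7 and overlap in exons 1 and 2.

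Counted together, 6 of the 7 tested genes rose from D0 to D2 in siCont and 0 fell, where 21.4% of all tested genes rose and 14% fell. The same 6 rose in siKctd10 and 0 fell, against 23.1% and 13.3% of all genes. Sgca could only rise, given how it passed the filter, and without it the count was 5 of 6 with each siRNA. The median change of the 7, Sgca included, was 1.02 in siCont and 1.11 in siKctd10, against 0.09 and 0.12 for all genes. The calls of these 6 genes did not change under median-ratio scaling or quantile normalization, which moved the median of all genes to 0.01 and -0.03 in siCont and to 0.00 and -0.02 in siKctd10. With quantile normalization the share of called genes that were higher went from 60.4% to 49% in siCont and from 63.5% to 50.4% in siKctd10. The D2 to D0 comparisons with each siRNA share no library, while each shares libraries with the siRNA comparisons.

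With siKctd10 at D0, 0 of the 7 genes were called, against 1.48% of all genes higher and 0.964% lower, and 3 of the 7 did not overlap between the siRNAs (Utrn, Sntb1 and Sgce), as was the case for 23.2% of all genes. At an unadjusted limma p under 0.05 there were 2 (Utrn and Sntb1), where 15.8% of all genes had such a p, and voom also called 0. At D2, 0 rose and 1 fell, against 2.83% and 1.92% of all genes, and 2 did not overlap (Sgce and Sntb1), where 28.4% of all genes did not. For the difference between the gains, 0 were higher and 1 was lower, against 0.375% and 0.367%. The median of the 7 was 0.03 at D0 and -0.08 at D2, against 0.04 and 0.08 for all genes. The share of called genes that were higher moved with the scaling, from 60.6% to 47.4% at D0 with quantile normalization, and with median-ratio scaling from 59.6% to 39.4% at D2 and from 50.5% to 38.6% for the difference between the gains.

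**Figure D3:**
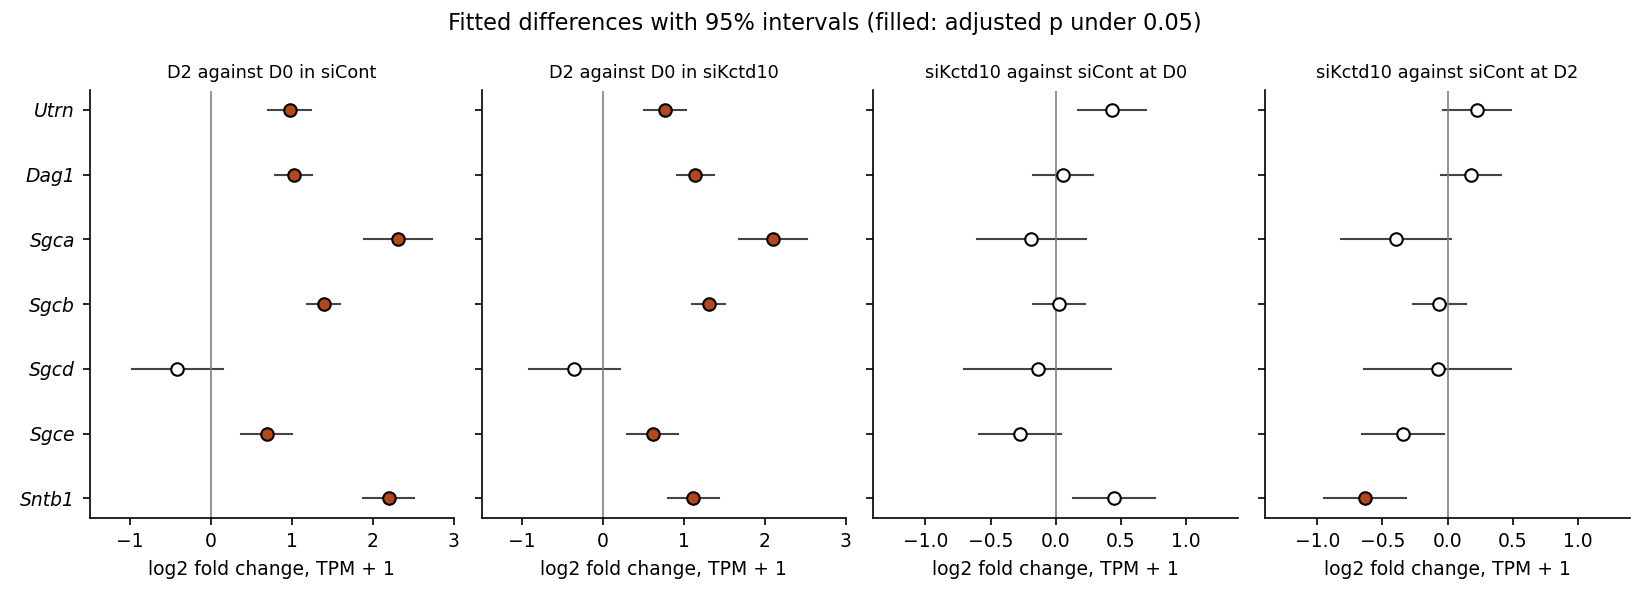
Fitted log2 fold change of TPM + 1 for the 7 tested genes (points) with 95% intervals (lines) in 4 comparisons, filled where the adjusted p was under 0.05. The D2 to D0 changes of 6 genes lie right of 0 with both siRNAs, and Sntb1 at D2 is the filled point among the siRNA comparisons. These 6 include Sgca, which passed the filter only through D2.

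Set in order of deposited TPM in D0 siCont, Dag1 came first, then Sgcb, Sgce, Utrn, Sgcd, Sntb1, Sgca and Dmd, with no overlap between neighbours. At D2 Sntb1 and Sgca passed Sgcd in siCont, and Sgce and Utrn overlapped. Recomputed on exons of at least 202 bases, Utrn was above Sgce in every group, with 51.1 ± 2.28 against 11.6 ± 1.5 TPM in D0 siCont and 102 ± 7.58 against 21.4 ± 3.72 in D2 siCont. On these exons Sntb1 was above Sgcd already in D0 siCont, with 6.28 ± 0.949 against 3.45 ± 0.314 TPM. In D2 siCont it was also above Sgce, with 29.7 ± 2.31 TPM. The places of Utrn, Sgce, Sntb1 and Sgcd in the order therefore depend on which exons enter.

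Of the other genes of the complex, Dtna rose from D0 to D2 with both siRNAs. Caveolin-3, Cav3, the muscle caveolin that binds beta-dystroglycan, passed the filter only through D2, so its D2 level had to be higher. It went from 0.278 ± 0.482 to 22.9 ± 0.952 TPM in siCont and from 0.0978 ± 0.169 to 9.8 ± 2.5 in siKctd10. At D2 its siKctd10 libraries, at 8.14, 12.7 and 8.58 TPM, lay well below siCont at 23.1, 21.9 and 23.8.

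That difference of Cav3 was -1.17 (95% interval -1.74 to -0.61, limma adjusted p = 0.028) and lost its call without both siKctd10 libraries numbered 3 (adjusted p = 0.11). Of 11 such genes listed, 7 were tested, and 4 rose in siCont and 5 in siKctd10, with 0 falling. Among all tested genes, 21.4% and 23.1% rose, and 14% and 13.3% fell. Cav3 and 1 other of the 7 passed the filter only through D2, and without both, 2 of 5 rose in siCont and 3 of 5 in siKctd10. These 5 include Dtnb, which passed only through D0, so the filter favoured a lower D2 level for it. With both siKctd10 libraries numbered 3 left out, 3 of the 7 rose in siKctd10. Under quantile normalization 4 rose and 1 fell with each siRNA, and under median-ratio scaling 4 rose with each and 1 fell in siCont. Alpha-dystrobrevin, Dtna, gained 1.91 in siCont and 1.16 in siKctd10, the latter not called without both siKctd10 libraries numbered 3 (adjusted p = 0.13). The median change of the 7 was 1.52 in siCont and 1.16 in siKctd10, against 0.09 and 0.12 for all genes. It includes the genes that passed the filter through 1 day only.

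Sarcospan, Sspn, a small membrane protein tied to the sarcoglycans, varied too much between D2 siCont libraries to place. It was at 127, 22.7 and 24.0 TPM there, against 113, 113 and 113 in D2 siKctd10, so the higher siCont library matched the siKctd10 level. Its gain was called in siKctd10, at 3.25 (limma adjusted p = 0.0027), and not in siCont, at 1.52 (adjusted p = 0.091), and the difference between these gains was 1.74 (95% interval -0.25 to 3.72). The genes Sgcz, Sntg1, Sntg2 and Nos1 were not tested, with at most 0.378 TPM in any library.

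On the laminin side, all 9 listed genes were tested, and 6 rose in siCont, or 5 of 8 without Lama4, which passed the filter only through D2. Among all tested genes, 21.4% rose and 14% fell in siCont. The count of 6 went to 4 without both siKctd10 libraries numbered 3, where Agrn (adjusted p = 0.055) and Bgn (adjusted p = 0.065) were no longer called by limma. Lama2, the laminin alpha-2 chain whose loss causes congenital dystrophy, went from 2.56 ± 0.22 to 14.7 ± 0.951 TPM in siCont, a gain of 2.14 (limma adjusted p = 4.1e-07), and gained 1.71 in siKctd10. Lama4, whose D2 level had to be higher, differed by 1.32 in siCont and 1.3 in siKctd10, and perlecan, Hspg2, gained 1.07 and 0.81. Agrin, Agrn, gained 0.93 in siCont, a call lost under both other scalings (adjusted p = 0.054 and 0.062), and 1.36 in siKctd10.

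In siKctd10, 6 of the 9 rose, or 5 of 8 without Lama4, among them biglycan, Bgn, by 0.96, and 2 fell, Lamc1 by 0.43 and Lamb1 by 0.35. Among all tested genes, 23.1% rose and 13.3% fell. With median-ratio scaling, 3 rose and 2 fell in siCont, and 6 rose and 3 fell in siKctd10. The beta-2 chain Lamb2 was higher with siKctd10 at D2, by 0.53 (95% interval 0.29 to 0.77, limma adjusted p = 0.023), a call lost without both siKctd10 libraries numbered 3 (adjusted p = 0.092) and on exons of at least 202 bases (0.41, adjusted p = 0.12). No other laminin-side gene was called between the siRNAs in deposited TPM, while on exons of at least 202 bases 2 were called higher at D0 and 0 at D2. The median change of the 9, Lama4 included, was 0.45 in siCont and 0.81 in siKctd10, against 0.09 and 0.12 for all genes.

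The enzymes that build the laminin-binding sugar chain on alpha-dystroglycan were mostly not called. Of 17 listed, 15 were tested, and 5 rose and 0 fell in siCont, where 21.4% of all genes rose and 14% fell. In siKctd10, 5 rose and 1 fell, against 23.1% and 13.3% of all genes, and the median change was 0.14 in siCont and 0.39 in siKctd10, against 0.09 and 0.12. On exons of at least 202 bases 3 rose in siCont, and 3 rose and 2 fell in siKctd10. Without both siKctd10 libraries numbered 3, 2 rose and 0 fell in siKctd10. No gene of this list had a call between the siRNAs.

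Pomgnt2, an early enzyme of the same chain, gained 0.94 in siCont and 0.78 in siKctd10, the latter not called by limma without both siKctd10 libraries numbered 3 (adjusted p = 0.06). Dpm3, a subunit of the enzyme that makes dolichol-phosphate mannose, gained 0.82 in siCont and 0.83 in siKctd10, calls lost under both other scalings and on exons of at least 202 bases, and in siKctd10 also without both libraries numbered 3 (adjusted p = 0.24). The kinase Pomk gained 0.52 with each siRNA, in siKctd10 also lost under both (adjusted p = 0.058 and 0.076), and Pomt1, which adds the first mannose, fell by 0.48 in siKctd10, a call lost without both libraries numbered 3 (-0.43, adjusted p = 0.058). Under median-ratio scaling 4 rose and 1 fell in siCont, and 1 rose and 2 fell in siKctd10. B4gat1 and Dpm1 were listed at 0 in all 12 libraries. Whether their transcripts were absent or lost in the processing of the deposited tables was not tested.

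Among 11 partners at the inner face and in parallel links to laminin, 10 were tested, and 5 rose with each siRNA and 0 fell, or 4 of 9 without Dysf, which passed the filter only through D2. Of all tested genes, 21.4% rose and 14% fell in siCont, and 23.1% rose and 13.3% fell in siKctd10. Integrin alpha-7, Itga7, the muscle laminin receptor that works beside dystroglycan, was at 140, 121 and 144 TPM in D0 siCont and at 520, 538 and 552 in D2 siCont, a gain of 1.99 (limma adjusted p = 3.4e-07). In siKctd10 it went from 135, 140 and 120 TPM to 395, 390 and 328, a gain of 1.49 (adjusted p = 2.6e-06). At D2 the siKctd10 libraries all lay below siCont.

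That difference of Itga7 was -0.54 (95% interval -0.76 to -0.32, limma adjusted p = 0.015). On exons of at least 202 bases it was -0.81 but no longer passed (adjusted p = 0.088), with 481 ± 178 TPM in D2 siKctd10 against 795 ± 10.7. Desmin, Des, the muscle intermediate filament, gained 1.72 in siCont and 1.41 in siKctd10, and dysferlin, Dysf, which acts in membrane repair and whose D2 level had to be higher, differed by 1.20 and 0.66. Filamin C, Flnc, which binds sarcoglycans, gained 1.11 and 0.55. In siKctd10 the call of Flnc was lost with median-ratio scaling (adjusted p = 0.086) and that of Dysf with quantile normalization (adjusted p = 0.24). Of the ankyrins, Ank2 was called in siCont (0.88) and Ank3 in siKctd10 (0.88), the latter lost without both libraries numbered 3 (adjusted p = 0.14). The mean TPM of both was higher at D2 than at D0 with each siRNA. The difference between siRNAs in these gains was not called for any of the 10.

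**Figure D4:**
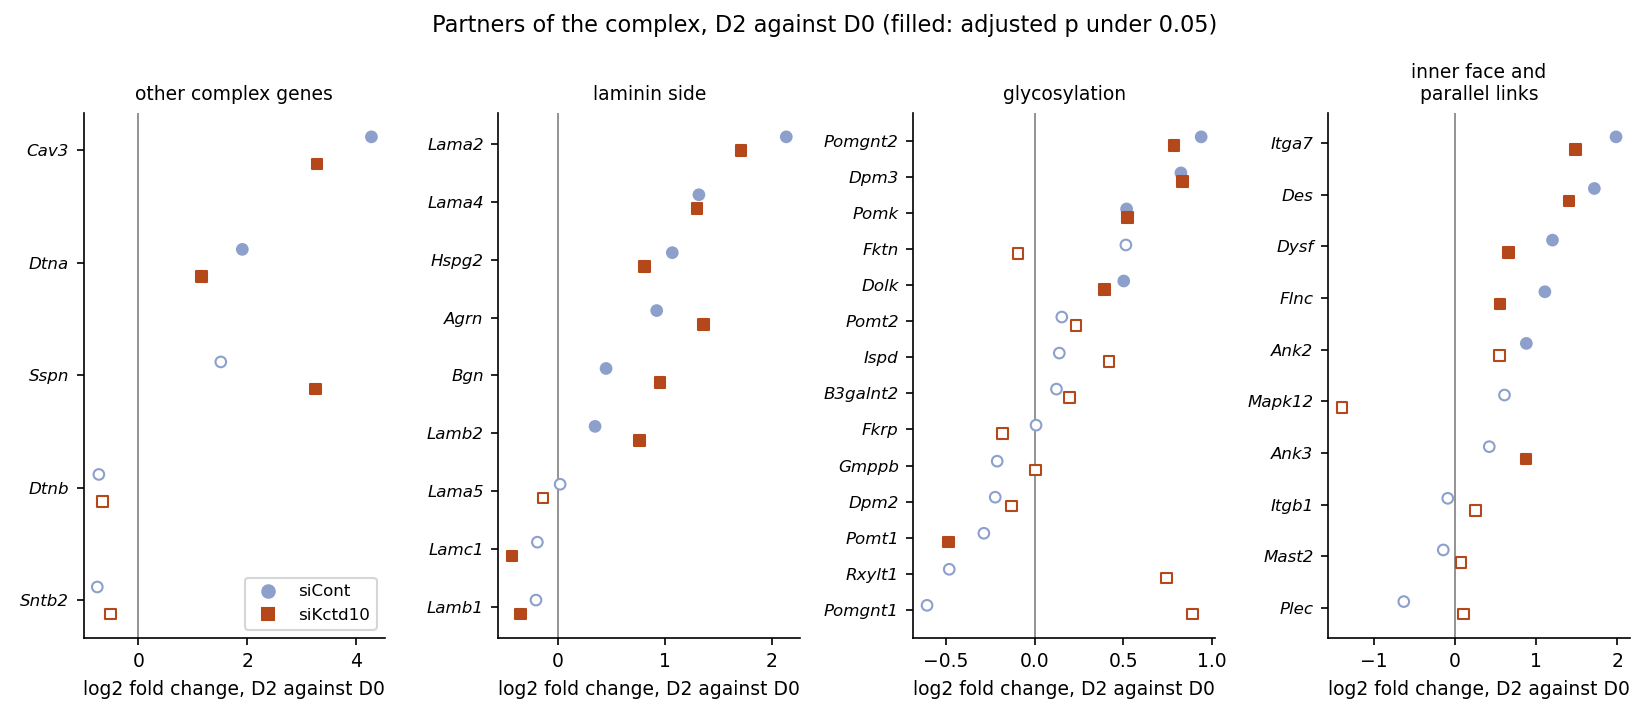
Log2 fold change of TPM + 1 from D0 to D2 for tested partners in 4 lists, as circles in siCont and squares in siKctd10, filled where the adjusted p was under 0.05. Cav3 leads the first list, Lama2 the laminin side and Itga7 the inner face and parallel links, while the glycosylation genes stay within 1 of 0.

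For each tested member the genes with the most similar course over the 12 libraries were listed among 9934 genes with a mean of at least 5 TPM, by the root mean square difference of log2(TPM + 1) after centring on D0 siCont. Sntb1 was nearest to Ldb3 (0.16), a Z-disc protein gene, then Cobl (0.19) and Pdgfd (0.22). Dag1 was nearest to Fzd2 (0.07), Sgcb to Trim13 (0.07), Utrn to Kremen1 (0.10) and Sgce to Syn1 (0.14). Sgca was nearest to Pcdhb16 (0.17) and Sgcd to Loxl3 (0.17).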

How the data were processed

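The deposited tables, 1 per library, list every transcript with its coverage, FPKM and TPM, made with StringTie, version 1.3.3b per the file headers and 1.1.3 per the submitters' processing notes. Those notes also name HISAT, SAMtools and the mm10 build. How short exons and strand were handled is not given in the sources used here. The unit used is the TPM, and coverage for exons, as the authors deposited them. No counts are in the tables, so no count test was the main result.

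The 63759 transcripts were matched to GENCODE M21 genes by identical introns (42608) or by overlap of at least 50% (13473), and TPM was summed per gene. Unmatched transcripts held 3.82% to 4.63% of the TPM. Read pairs were estimated as coverage times length over 202 bases, the step in which the total coverage of low transcripts most often came and which was taken as 1 read pair. Values of log2(TPM + 1) for the 13077 genes with a TPM of 1 in at least 3 libraries were fitted with limma 3.58.1 in R 4.3.3, with trend and robust options, as 4 group means with 8 residual degrees of freedom. P-values were adjusted over all tested genes by Benjamini-Hochberg with a threshold of 0.05. For 3 libraries against 3, the smallest exact permutation p is 0.1, so no such test is given. The fit was tested on simulated data.

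The 8 members and the lists of other complex genes, laminin-side genes, glycosylation enzymes, inner-face partners and markers were chosen with earlier results of these data known. Members are always named, and from each list up to 4 called genes per direction and comparison with the largest change, besides Sspn, Lama2 and Itga7. A few genes that this rule names are not reported here, though counts and medians of the lists include them. Alternatives changed the pseudocount, filter, scaling, unit, groups in the fit, pairing, matching and libraries. Those on exons of at least 202 bases and without both siKctd10 libraries numbered 3 were chosen after seeing the data.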

Additional observations from a re-analysis of the deposited data

Results flagged for a closer look

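The gain of Sntb1 from D0 to D2 differed between the siRNAs, by -1.08 on the log2(TPM + 1) scale (limma adjusted p = 0.047), and is listed here because that difference was tested directly. Sntb1 rose by 2.19 in siCont and by 1.11 in siKctd10. The call of this difference was lost whichever single library was left out. Groups of 3 libraries are too small to test within a group whether a single library is an outlier.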

How the results depend on the processing

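Of 828 values of the 7 genes recomputed under other settings, 783 kept their direction and their side of the threshold, 28 lost a call, 1 gained one and 16 turned sign. All 167 values of D2 against D0 with each siRNA kept both, and the number of members called stayed at 6, except that it was 5 with a mean TPM of at least 5, where Sgca was left out. The 28 lost calls were all of Sntb1, 11 at D2 and 17 of the difference between gains. The cause of these changes was not tested.

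Members called for siKctd10 at D0 went from 0 to 1 on exons of at least 202 bases, where 485 genes were called in place of 320, against 72 with only the groups compared. At D2 the count of 1 went to 0 with only the groups compared (252 genes in place of 621), with the replicate block and on exons of at least 202 bases. For the difference between gains the count of 1 went to 0 with a pseudocount of 0.1 (62 genes in place of 97), voom, the replicate block (42 genes), exons of at least 202 bases (157 genes) and without both siKctd10 libraries numbered 3 (63 genes), and 167 genes were called with a pseudocount of 5. Leaving out 1 library at a time gave 118 to 306 genes at D0, 315 to 682 genes and 0 to 1 members at D2, and 52 to 82 genes and 0 to 0 members for the difference between gains.

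Same-numbered libraries correlated between -0.02 and 0.20 in their deviations from the group means, not all above 0.1, and the main fit used no pairing. Between the days in siKctd10 the same-numbered values were 0.091, 0.046 and 0.202, against -0.142 to 0.066 for unlike numbers. Whether the numbers pair the siKctd10 libraries is not settled by these values. With the replicate block Sntb1 had an adjusted p of 0.067 at D2 and 0.11 for the difference between gains, and no other member changed its call.

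Sign changes were all of values not past the threshold. For siKctd10 at D0, Dag1 went to -0.026 with voom and ranged from -0.015 to 0.167 without 1 library. Sgcb went to -0.028 with median-ratio scaling, -0.044 with quantile normalization, -0.061 with voom and -0.041 without both libraries numbered 3, and ranged from -0.041 to 0.109 without 1 library. Sgcd at D0 ranged from -0.265 to 0.033 without 1 library. At D2 Sgcd went to 0.021 on exons of at least 202 bases and 0.148 without both libraries numbered 3, and ranged from -0.305 to 0.148 without 1 library. For the difference between gains, without 1 library, Sgcd ranged from -0.167 to 0.286 and Sgce from -0.173 to 0.093.

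Depth limits Dmd, at no more than 7.74 estimated read pairs per library, and Sgca and Sgcd, at no more than 97.7 and 74. For Sntb1 the range was 49.5 to 290.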
